A study of Homo sapiens with 12 samples.

Results

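The transcripts of 7 genes that move ions across membranes were followed in LNCaP cells, an androgen-responsive human prostate cancer line. They are the magnesium carrier SLC41A1, the TRP channels TRPM7, TRPM8, TRPM4 and TRPV6, the nicotinic receptor subunit CHRNA2 and the potassium channel KCNMA1. The 7 genes, of 34643 listed and 15419 with enough counts to be tested, were chosen partly on measured differences between these same libraries. Their levels, their fold changes and the counts of those past a limit are therefore given as descriptions, without p-values, and are no independent evidence of a difference. A mean under 3 counts per library was to be treated as near 0, and no gene was left out for it, since the lowest of them, CHRNA2, had 16.5 counts or more in every library.

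RNA-seq libraries came from 4 groups of 3, in which cells carried a scrambled control shRNA (shScramble) or an shRNA against TMEFF2 (shTMEFF2), and received dihydrotestosterone (DHT+) or ethanol vehicle (DHT-). Both shRNAs were expressed from the U6 promoter of the lentiviral plasmid pLKO.1-puro, and all cells had passed puromycin selection and carried the shRNA for 17 days. All cells were kept for 24 h in charcoal-stripped serum, which depletes androgens, before 24 h with 10 nM DHT or vehicle. The repeats were separate treatments and extractions from 2 transductions, and the labels do not say which library came from which transduction, so the spread between libraries does not measure the spread between 3 separately made lines. The shRNA was the only manipulation of TMEFF2, a transmembrane protein of prostate cells, and LNCaP is a single cell line. TMEFF2 itself averaged 85.0 ± 16.0 CPM in shScramble and 63.2 ± 21.7 in shTMEFF2 without DHT, and 153 ± 31.4 and 116 ± 26.0 with DHT (SD, n = 3). Its libraries overlapped between the lines in both media, and the log2 differences of -0.43 ± 0.25 (SE, adjusted p = 0.503) and -0.41 ± 0.25 (adjusted p = 0.304, edgeR quasi-likelihood test) did not pass the test. A lower TMEFF2 transcript level in the shTMEFF2 libraries was thus not detectable at this replication. Per the paper, 2 of 3 shRNAs against TMEFF2 appreciably lowered it on Western blots of LNCaP cells, and TMEFF2 mRNA was also measured with the silencing shRNAs. The sources used here do not say which shRNA was sequenced. Per the labels, knockdown had been checked in the cells after selection.

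Library totals were 19450866 to 22612046 estimated counts. Levels are in CPM, counts scaled to a common library size by TMM normalization, a scale in which longer transcripts give more counts. All 7 luminal prostate markers examined were detected. They summed to 6415 to 6686 CPM in shScramble DHT- and 12253 to 12977 in shScramble DHT+, and to 4247 to 4732 and 5046 to 6091 in the shTMEFF2 groups. Among them KRT8 and KRT18, keratins of luminal cells, averaged 448 and 354 CPM in shScramble DHT- and 1138 and 777 in shScramble DHT+, with 492 and 341 in shTMEFF2 DHT- and 444 and 356 in shTMEFF2 DHT+. By contrast, the basal keratin KRT5 was at 0 in every library, the T cell gene CD3E had 1 count in all, and the 3 basal markers summed to 1.74 CPM at most. The 3 fibroblast markers summed to 19.1 to 19.8 CPM in shScramble DHT- and 12.2 to 13.2 in shScramble DHT+, and to 21.7 to 31.2 and 14.9 to 17.8 in the shTMEFF2 groups, nearly all of it COL1A1. The 3 endothelial markers, mostly VWF, summed to 15.4 to 25.0 and 13.2 to 14.6 CPM in shScramble without and with DHT and to 19.3 to 27.1 and 19.8 to 29.5 in shTMEFF2, and the 3 leukocyte markers, mostly PTPRC, to 4.85 to 5.96, 3.49 to 3.77, 6.29 to 7.97 and 4.28 to 6.83 CPM in the same order of groups. The part of these markers in the results was not tested.

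Ion channels let ions flow down their gradients when a ligand, a voltage, temperature or an internal messenger opens the pore, while carriers move ions by coupled transport. SLC41A1 exports magnesium from the cell, and TRPM7, a channel fused to a kinase, lets magnesium and calcium in. TRPM8 is the cold and menthol receptor and a known androgen-responsive gene of the prostate, TRPM4 is opened by internal calcium and carries sodium, TRPV6 is a calcium-selective entry channel, CHRNA2 is a subunit of the acetylcholine-gated nicotinic receptor, and KCNMA1 forms the pore of the large-conductance BK channel, opened by voltage and calcium. DHT acts through the androgen receptor, a transcription factor that binds DNA as a dimer on 2 inverted copies of a 6-base motif.

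Promoters of SLC41A1, TRPM8 and KCNMA1, which rose with DHT in shScramble, and of TRPV6, which changed little, are printed so that the windows of both kinds can be read side by side. RefSeq promoter windows of GRCh38.p14, from 250 bases before to 50 after each annotated start, were available for 6 of the 7 genes, all but CHRNA2, as 12 promoters. This motif, AGAACA, was searched on both strands, so that it also reads TGTTCT, together with the TATA motif TATAAA on both strands; matches are in capitals. SLC41A1 (chr1:205813149-205813448, minus strand), TRPM8 promoter 1 (chr2:233917123-233917422, plus strand), TRPM8 promoter 6 (chr2:233979899-233980198, plus strand), TRPV6 (chr7:142885696-142885995, minus strand) and KCNMA1 promoter 1 (chr10:77637759-77638058, minus strand) read as follows.
SLC41A1: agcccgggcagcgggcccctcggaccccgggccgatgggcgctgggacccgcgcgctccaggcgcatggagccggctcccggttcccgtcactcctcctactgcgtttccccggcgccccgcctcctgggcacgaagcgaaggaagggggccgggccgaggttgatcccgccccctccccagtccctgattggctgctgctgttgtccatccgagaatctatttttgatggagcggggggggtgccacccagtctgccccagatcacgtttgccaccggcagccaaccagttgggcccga
TRPM8 promoter 1: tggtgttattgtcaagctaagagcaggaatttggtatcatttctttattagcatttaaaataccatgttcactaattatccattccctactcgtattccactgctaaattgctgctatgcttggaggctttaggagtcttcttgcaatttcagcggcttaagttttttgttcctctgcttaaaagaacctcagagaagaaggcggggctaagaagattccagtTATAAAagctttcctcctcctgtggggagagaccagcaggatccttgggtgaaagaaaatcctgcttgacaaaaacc
TRPM8 promoter 6: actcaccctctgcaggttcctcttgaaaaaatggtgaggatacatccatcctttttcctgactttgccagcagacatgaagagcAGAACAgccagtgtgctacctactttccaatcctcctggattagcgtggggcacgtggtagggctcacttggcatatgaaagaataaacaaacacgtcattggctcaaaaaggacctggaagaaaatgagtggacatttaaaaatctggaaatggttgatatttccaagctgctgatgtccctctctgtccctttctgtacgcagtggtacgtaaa
TRPV6: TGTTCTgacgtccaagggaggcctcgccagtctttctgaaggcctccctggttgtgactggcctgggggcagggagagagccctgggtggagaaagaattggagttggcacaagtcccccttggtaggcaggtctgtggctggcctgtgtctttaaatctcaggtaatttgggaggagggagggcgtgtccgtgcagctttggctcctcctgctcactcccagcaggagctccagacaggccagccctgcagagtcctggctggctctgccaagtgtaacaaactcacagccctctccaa
KCNMA1 promoter 1: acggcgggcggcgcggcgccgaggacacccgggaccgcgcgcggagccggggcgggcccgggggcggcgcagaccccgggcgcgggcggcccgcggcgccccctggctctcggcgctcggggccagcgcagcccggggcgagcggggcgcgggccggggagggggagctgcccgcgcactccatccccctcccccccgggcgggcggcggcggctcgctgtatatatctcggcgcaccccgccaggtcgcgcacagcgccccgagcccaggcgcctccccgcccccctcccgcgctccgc

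Of these 12 promoters, 2 held the 6-base motif, 1 in TRPM8 promoter 6 at position -166 from the start and 1 in TRPV6 at -250, against 14.8% of 35116 promoters of all genes. None held it as an inverted repeat with a spacer of 3 bases, a form found in 1 promoter of all. The TATA motif lay in TRPM8 promoter 1 at -27, and 11.5% of all promoters held it on either strand. The SLC41A1 promoter was 70.3% GC and KCNMA1 promoter 1 85.7%, whereas KCNMA1 promoter 2 was 54.7% GC and TRPM8 promoter 1 41.0%. The median over all promoters was 58.7%. These matches say only which letters lie in the windows.

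Counted over the comparisons, DHT raised 4 of the 7 genes in shScramble past the limits used throughout, a fold change of at least 1.5 with an adjusted p of at most 0.05, namely SLC41A1, CHRNA2, TRPM8 and KCNMA1; of all genes tested, 5.45% were called higher and 6.45% lower there. In shTMEFF2, 3 of the 7 were past the limits and higher with DHT, namely CHRNA2, TRPM8 and KCNMA1, where 3.28% of all genes were called higher and 1.6% lower. Between the lines, TRPM8 was the only one past the limits without DHT, lower in shTMEFF2, beside 0.272% of all genes called lower and 0.298% higher. With DHT, SLC41A1, CHRNA2, TRPM8 and KCNMA1 were past the limits and lower in shTMEFF2, beside 3.74% called lower and 3.03% called higher. The difference between the 2 DHT responses, taken on the adjusted p alone, was past the limit for SLC41A1, CHRNA2, TRPM4 and KCNMA1. All had the lower log2 response in shTMEFF2, and that of TRPM4 was negative there (0.57 in shScramble, -0.30 in shTMEFF2). Of all genes, 3.29% were called in that direction and 1.65% in the other. Because the genes were chosen with these contrasts in view, nothing is read from the comparison of these counts.

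**Figure D1:**
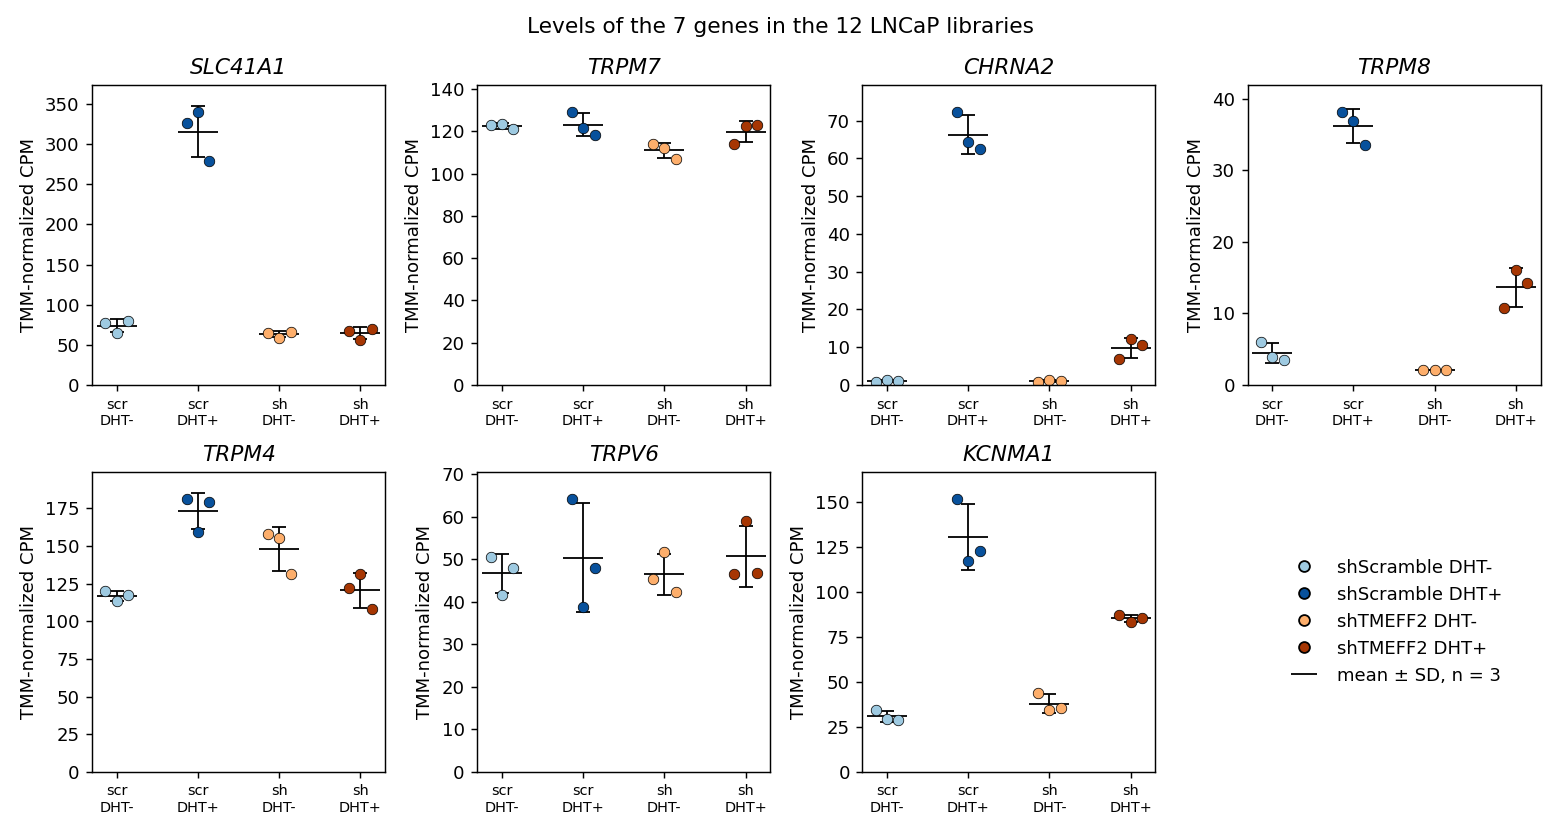
Level of each gene in TMM-normalized CPM on the vertical axis, 1 point per library, with the 4 groups along the horizontal axis (scr, shScramble; sh, shTMEFF2) and bars for the mean ± SD of 3 libraries. The shScramble DHT+ libraries of SLC41A1 lie between 279.6 and 339.8 CPM and every other library of that gene at or below 79.4.

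SLC41A1, the magnesium exporter, rose with DHT in the control cells and stayed at the vehicle level in shTMEFF2. The gene lies on chromosome 1 from 205789094 to 205813748 on the minus strand. In shScramble DHT- its 3 libraries read 77.2, 64.5 and 79.4 CPM, and in shScramble DHT+ 327, 339.8 and 279.6 CPM. In shTMEFF2 the libraries read 64.3, 59.0 and 65.9 CPM without DHT and 67.8, 56.3 and 70.1 CPM with DHT. The DHT-treated control cells thus stood far above all others, and the 3 remaining groups overlapped. The log2 response to DHT was 2.10 ± 0.11 (SE) in shScramble, a 4.28-fold rise, and 0.04 ± 0.11 in shTMEFF2, and the 2 responses differed by -2.06 ± 0.15. With DHT, the log2 difference of shTMEFF2 from shScramble was -2.28 ± 0.11. In bulk RNA, fewer cells of a type and less RNA per cell cannot be told apart.

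TRPM7, which admits magnesium where SLC41A1 exports it, stayed within a narrow band. It lies on chromosome 15 from 50552473 to 50686797 on the minus strand. Its group means lay between 111 and 123 CPM, with individual libraries between 107 and 129 CPM. Log2 responses to DHT were 0.01 ± 0.06 in shScramble and 0.11 ± 0.06 in shTMEFF2. The highest group mean was 1.11 times the lowest, so of the 2 magnesium transporters only SLC41A1 varied past the limits here. Of the 31-base stretches of its transcripts, 13.6% also occur in transcripts of other genes, the highest share of the 7, so reads could be divided among them.

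CHRNA2 moved over the widest range. The gene lies on chromosome 8 from 27459756 to 27479883 on the minus strand. It read 0.750, 1.41 and 1.12 CPM in shScramble DHT- and 72.2, 64.3 and 62.4 CPM in shScramble DHT+. In shTMEFF2 it read 0.791, 1.41 and 1.14 CPM without DHT and 6.86, 12.1 and 10.7 CPM with DHT. Without DHT the lines coincided near 1 CPM (16.5 to 31.8 counts per library), and with DHT no library of one line reached the other. The log2 response was 5.93 ± 0.25 in shScramble, or 60.8-fold, and 3.13 ± 0.25 in shTMEFF2, or 8.77-fold. The difference between the responses was -2.79 ± 0.38. For this gene the 2 deposited columns of the first shScramble DHT- library differed by 1.34 on the log2 scale. Of its 31-base stretches, 2.18% are shared with other genes, mostly CHRNA4, a related subunit with group means of 0.376 to 1.51 CPM.

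TRPM8 responded to DHT in both lines at lower levels in shTMEFF2. The gene lies on chromosome 2 from 233917373 to 234019522 on the plus strand. Its libraries read 5.98, 3.94 and 3.43 CPM in shScramble DHT- and 38.1, 36.9 and 33.6 CPM in shScramble DHT+, and 2.13, 2.13 and 2.11 CPM and 10.7, 16.0 and 14.2 CPM in the corresponding shTMEFF2 groups. No 2 groups overlapped. The log2 responses of 3.02 ± 0.19 (8.09-fold) and 2.68 ± 0.21 (6.403-fold) differed by -0.34 ± 0.28. Against shScramble, shTMEFF2 differed by -1.07 ± 0.22 without DHT and by -1.41 ± 0.18 with it, on the log2 scale. The lower level without DHT rested on 44.4 to 132 counts per library and passed the limits in 3 of 12 fits that left out a library and in 6 of 9 other settings. It was lost without the first or second shScramble DHT- library, any shScramble DHT+ or shTMEFF2 DHT- library, or the third shTMEFF2 DHT+ library. For TRPM8 the 2 deposited columns of the third shScramble DHT- library differed by 1.43 on the log2 scale.

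TRPM4, the calcium-activated sodium channel, was higher with DHT in shScramble and lower on average with DHT in shTMEFF2, in both by less than the fold limit. The gene lies on chromosome 19 from 49157741 to 49211836 on the plus strand. It read 119.98, 114 and 117 CPM in shScramble DHT- and 181, 159 and 179.5 CPM in shScramble DHT+. In shTMEFF2 it read 158, 155 and 131 CPM without DHT and 122, 131 and 108 CPM with DHT. Control libraries did not overlap between the media, whereas those of shTMEFF2 met at 131 CPM. The log2 response was 0.57 ± 0.09 in shScramble, 1.48-fold and just short of the 1.5-fold limit, and -0.30 ± 0.09 in shTMEFF2, with a difference of -0.87 ± 0.13. Leaving out the first shScramble DHT- library or the second shScramble DHT+ library carried the fold past the limit.

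TRPV6, the calcium entry channel, showed no separation of groups. The gene lies on chromosome 7 from 142871208 to 142885745 on the minus strand. Its libraries ran from 38.8 to 64.2 CPM in shScramble DHT+ and from 41.6 to 58.9 CPM in the other groups. Log2 responses were 0.11 ± 0.16 and 0.13 ± 0.16, so that changes of about the size of their standard errors could not be detected. The 2 columns of the first shScramble DHT+ library differed by 0.58 on the log2 scale for this gene, and TRPV5, its nearest relative, shares most of the 1.78% of 31-base stretches found in other genes.

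KCNMA1, the BK channel pore, rose with DHT in both lines and less in shTMEFF2. The gene spans 76869601 to 77638369 on the minus strand of chromosome 10. Its libraries read 34.2, 29.4 and 28.9 CPM in shScramble DHT- and 152, 117 and 123 CPM in shScramble DHT+, and 44.05, 34.2 and 35.4 CPM and 87.2, 83.1 and 85.7 CPM in shTMEFF2. The lines overlapped without DHT and were apart with it, the control cells being higher. Responses on the log2 scale were 2.08 ± 0.12 (4.23-fold) and 1.17 ± 0.12 (2.25-fold), and differed by -0.91 ± 0.16. With DHT the difference between the lines was -0.61 ± 0.11, or 1.53-fold lower in shTMEFF2, close to the limit, and it fell short without the first shScramble DHT+ or the second shTMEFF2 DHT+ library, and with scaling by library size only. Several antisense transcripts overlap the gene, as others do at SLC41A1, TRPM8, TRPM7 and TRPV6, and the sources used here do not state the strand of the counting. Of the 31-base stretches of KCNMA1, 1.15% are shared with other genes, mostly the antisense KCNMA1-AS1. Reads confined to those shared stretches could be divided among the genes.

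**Figure D2:**
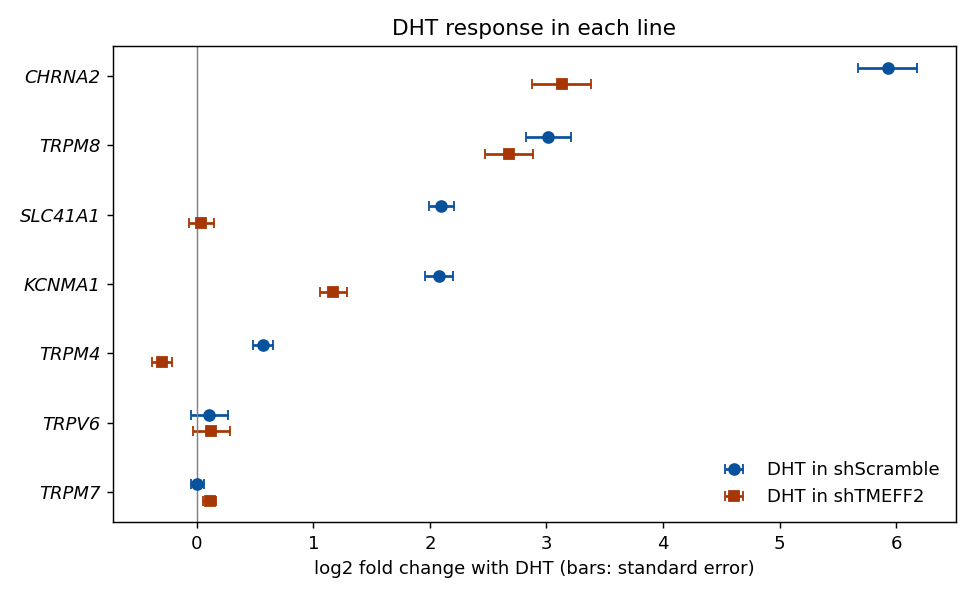
Log2 fold change with DHT on the horizontal axis for each gene, with bars for the standard error, in shScramble (circles) and shTMEFF2 (squares). CHRNA2 shows 5.93 against 3.13, SLC41A1 2.10 against 0.04, and TRPM7 and TRPV6 lie near 0 in both lines.

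Per kilobase of the canonical transcript, the order of the 7 genes differed between the groups. In shScramble DHT- TRPM4 was highest at 28.8 CPM per kb, followed by TRPV6 at 16.1 and SLC41A1 at 14.7, and CHRNA2 was lowest at 0.271. In shScramble DHT+ SLC41A1 led at 62.9 CPM per kb, above TRPM4 at 42.7, and CHRNA2 reached 16.4, near TRPV6 at 17.3. In shTMEFF2 TRPM4 led both without DHT (36.5) and with DHT (29.7), TRPV6 followed at 16.0 and 17.4, and SLC41A1 stood at 12.6 and 12.9. KCNMA1 went from 6.05 to 13.6 CPM per kb with DHT in shTMEFF2, TRPM7 stood at 10.7 and 11.5, CHRNA2 at 0.276 and 2.45, and TRPM8 at 0.377 and 2.41.

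**Figure D3:**
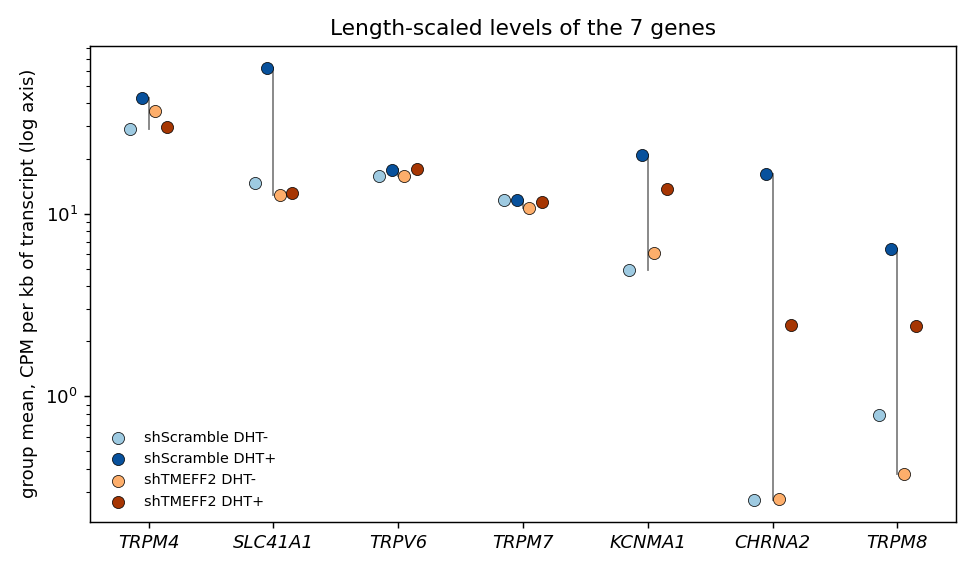
Group means in CPM per kb of the canonical transcript, on a log axis, for the 7 genes ordered by their mean over all libraries, with 1 point per group. CHRNA2 spans 0.271 to 16.4 CPM per kb, whereas the points of TRPM7 and TRPV6 nearly coincide.

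Across the 12 libraries, which fall into the 4 groups and so share their treatment, log2 CPM of CHRNA2 correlated with that of TRPM8 (Pearson r = 0.954) and KCNMA1 (r = 0.953), and TRPM8 with KCNMA1 (r = 0.923). SLC41A1 correlated less with these, at r = 0.819, 0.779 and 0.718. TRPV6 reached at most r = 0.403 with any of the others. Among all other genes tested, the closest profiles to SLC41A1 included those of PLPP6 (r = 0.987) and SLC50A1 (r = 0.980). For CHRNA2 they were PEX10 (r = 0.996), SORD2P (r = 0.991) and MYBPC1 (r = 0.990), and for TRPM8 OSBPL8 (r = 0.983), ELOVL5 (r = 0.982) and ELOVL7 (r = 0.981), of which the last 2 elongate fatty acids. For KCNMA1 the closest were CROT and IMMP1L (both r = 0.976) and TUBA3E (r = 0.974), and for TRPM4 ZNHIT1 (r = 0.942), HID1 (r = 0.939) and TRIM5 (r = 0.928). The best matches of TRPM7 and TRPV6, AURKC (r = 0.884) and SMC5 (r = 0.878), were weaker. SMC5 read 443.8 CPM in the first shScramble DHT+ library, also the highest of TRPV6, against 73.9 and 88.1 in the rest of that group. AURKC had only 4.7 to 16.3 counts per library, and TUBA3E at most 1.2 counts in shScramble DHT-.

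Of 14 nearest protein-coding neighbours, 11 were tested. EdgeR called none of the 11 for DHT in shScramble, where 5.45% of all genes tested were called higher and 6.45% lower. It also called none between the lines with DHT, where 3.03% were called higher and 3.74% lower. Among so few genes, nothing is read from these counts. RAB29, 13.6 kb from SLC41A1, had log2 differences of 0.30 with DHT in shScramble (adjusted p = 0.00721) and -0.48 between the lines with DHT (adjusted p = 0.000654), both under the 1.5-fold limit. HJURP beside TRPM8 rose by 1.03 with DHT in shTMEFF2 (adjusted p = 0.00174), and SLC6A16 beside TRPM4 was higher by 1.24 in shTMEFF2 without DHT (adjusted p = 0.0227). The call of SLC6A16 was lost without the first or the second library of either DHT- group.

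Other transporters and channels were examined as 6 lists holding 229 further genes, of which 140 were tested. With DHT in shScramble 7 (5.0%) were called higher and 17 (12.1%) lower, against 5.45% and 6.45% of all genes tested. The median log2 fold change was -0.131 against -0.013 over all genes tested. In shTMEFF2 4 (2.9%) were called higher and 5 (3.6%) lower, against 3.28% and 1.6% of all genes (median -0.128 against -0.021). Between the lines with DHT 6 (4.3%) were higher and 7 (5.0%) lower in shTMEFF2, against 3.03% and 3.74% of all genes (median 0.024 against 0.004). Without DHT none of the 140 was called by edgeR, against 0.298% of all genes called higher and 0.272% lower. Of the 140, 20 had an unadjusted p under 0.05, and DESeq2 called 4.

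Among the 19 magnesium carriers and regulators tested, the SLC41A1 relative SLC41A2 fell by 1.01 on the log2 scale with DHT in shScramble (adjusted p = 0.00524), and was 0.87 higher in shTMEFF2 than in shScramble with DHT (adjusted p = 0.0198). SLC41A3 was not called (log2 fold change -0.19, adjusted p = 0.144). MAGT1, a magnesium transporter that also serves protein glycosylation, rose by 0.62 in shScramble (adjusted p = 0.000227) and had 0.08 in shTMEFF2 (adjusted p = 0.619). Its rise fell under the 1.5-fold limit without the third shScramble DHT- library (0.58) or the first shScramble DHT+ library (0.52).

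Of 14 further TRP channels and partners tested, 2 (14.3%) were called higher and 1 (7.1%) lower with DHT in shScramble. The shares of all genes tested were 5.45% and 6.45%. TRPM2, an oxidant-sensitive calcium channel, rose by 0.64 (adjusted p = 0.00046), and TCAF2, a TRPM8-associated factor, by 1.04 ± 0.23 (adjusted p = 0.00458). TCAF2 was also lower in shTMEFF2 with DHT, by a log2 difference of -1.07 (adjusted p = 0.00669). TRPC1 fell by 1.69 in shScramble (adjusted p = 0.047), and the call was kept in 4 of 12 fits that left out a library. In shTMEFF2 none of the 14 was called in either direction, where 3.28% of all genes tested were called higher and 1.6% lower.

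Of 53 other potassium channel genes, 4 (7.5%) rose and 6 (11.3%) fell with DHT in shScramble, against 5.45% and 6.45% of all genes tested. KCNN2, a small-conductance calcium-activated channel, rose by 1.17 ± 0.10 (adjusted p = 4.79e-06) and, in shTMEFF2, by 0.76 ± 0.10 (adjusted p = 0.000948). KCNU1, a relative of KCNMA1, fell by 3.31 ± 0.72 in shScramble (adjusted p = 0.00455), where its libraries ranged from 3.50 to 18.2 CPM without DHT and from 0.117 to 2.65 CPM with it. The BK accessory subunits KCNMB1, KCNMB3 and KCNMB4 and LRRC26 were not called, with log2 fold changes of 0.17, -0.17, 0.56 and 0.14 in shScramble. KCNH3 fell by 3.53 ± 0.75 in shScramble (adjusted p = 0.00394) and rose by 2.33 ± 0.68 in shTMEFF2 (adjusted p = 0.0406); its libraries varied from 1.82 to 9.38 CPM in shScramble DHT- and from 1.18 to 10.1 CPM in shTMEFF2 DHT+, and the rise was kept in 3 of 12 fits that left out a library.

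Among 9 other nicotinic subunits and chaperones none was called with DHT in shScramble, where 5.45% of all genes tested were called higher and 6.45% lower. CHRNA5 rose by 0.66 with DHT in shTMEFF2 (adjusted p = 0.00618), a call lost without the second shTMEFF2 DHT- library (0.55). CHRNA4 and CHRNE were lower in shTMEFF2 with DHT, by log2 differences of -1.97 (adjusted p = 0.046) and -1.28 (adjusted p = 0.042); these calls were kept in 4 and 2 of 12 fits that left out a library. Of 25 calcium entry, store and pump genes 4 (16.0%) fell with DHT in shScramble and none rose, against 6.45% and 5.45% of all genes tested. In shTMEFF2 ORAI1, the pore of store-operated calcium entry, rose by 0.71 (adjusted p = 0.0355) and its relative ORAI2 fell by 0.72 (adjusted p = 0.00173). The list of voltage-gated calcium and sodium channels also held subunits of the epithelial sodium channel, such as SCNN1G, which are not voltage-gated. Of the 20 genes tested from this list, 4 fell in shScramble and none rose, against 6.45% and 5.45% of all genes tested. Among the 4, SCNN1G fell by 1.98 (adjusted p = 0.00381), and by 1.49 in shTMEFF2 (adjusted p = 0.0296). Fits that left out a library kept the call of SCNN1G in shTMEFF2 in 7 of 12, of ORAI1 in 7, and of SLC41A2 between the lines in 8.

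**Figure D4:**
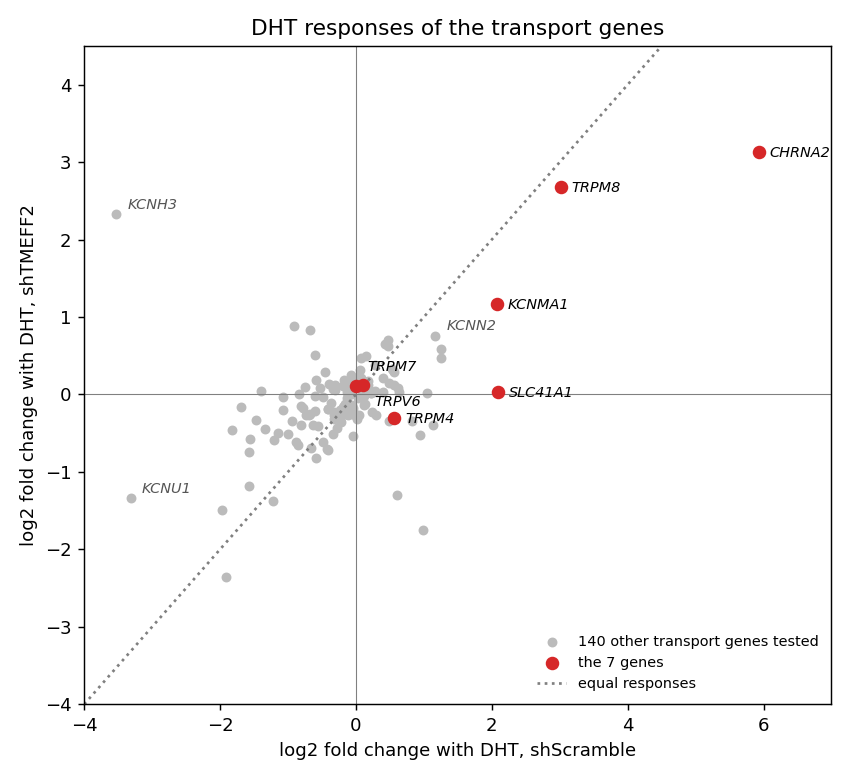
Log2 fold change with DHT in shScramble (horizontal axis) and in shTMEFF2 (vertical axis), 1 point per gene, for the 7 genes and the 140 other transport genes tested, with a dotted line of equal responses. CHRNA2 lies farthest to the right at 5.93, SLC41A1 lies near the horizontal zero line, and KCNH3 is the gene that fell by 3.53 in shScramble and rose by 2.33 in shTMEFF2.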

How the data were processed

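RNA-seq was performed by the authors on 12 LNCaP libraries. Per the labels and the paper, reads were checked with FastQC, filtered for contaminants, trimmed with Trimmomatic to at least 15 bp and quantified with kallisto 0.42.3, with bias correction, on GRCh38. The authors deposited estimated counts (expected counts, scaled by transcript length and library size) per gene symbol, 2 columns per library, and all 24 columns were assigned to a library. Because of the length scaling, a switch of transcripts alone does not move a gene's count.

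The 2 columns of a library were summed and rounded, and 15419 genes passed filterByExpr (minimum count 10, minimum total count 15). Levels are TMM-normalized CPM (factors 0.955 to 1.037). The 12 libraries were fitted together with edgeR 4.0.16 in R 4.3.3 (quasi-likelihood test, Benjamini-Hochberg over all genes tested, fold limit 1.5, adjusted p limit 0.05, no fold limit for the difference of responses). Correlations used log2 CPM with a prior count of 2. Positions are from GENCODE on GRCh38. Named list genes were taken among the 5 highest and 5 lowest called log2 fold changes of each comparison and the 3 smallest p for the difference of responses, and relatives or partners of the 7 genes (SLC41A3, SLC41A2 and MAGT1 with DHT in shScramble, TRPM2, and the BK accessory subunits) were named after their values were seen. For each of the 7 genes up to 3 genes of highest correlation were named, and some results are not reported here. Neighbours are the nearest protein-coding genes on each side that do not overlap the gene and whose symbol is among the deposited counts. A nearer gene under another symbol would thus be passed over, and the farthest neighbour, ZNF503, lies 1467.8 kb from KCNMA1. The genes described and the lists were chosen with earlier results of these data known. Alternatives were DESeq2 1.42.0, library size only, no filter, a mean above 5 CPM, the libraries of a comparison only, the replicate number as a block, each column alone, a prior count of 0.5 and each library left out. The statistics were checked on simulated counts in which a set of genes had been changed. P-values measure the spread between these libraries only.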

Additional observations from a re-analysis of the deposited data

Results flagged for a closer look

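Of the 140 other transport genes tested, 4 passed a test of whether DHT acted unequally in both lines (edgeR quasi-likelihood test, adjusted p at most 0.05). They made up 1.4% in each direction, against 1.65% of all genes called higher and 3.29% called lower. KCNH3 differed by 5.86 ± 1.01 on the log2 scale (SE, adjusted p = 0.00562), with libraries of 9.38, 8.46 and 1.82 CPM in shScramble DHT-, 0.554, 0.537 and 0.617 in shScramble DHT+, 1.445, 1.098 and 1.004 in shTMEFF2 DHT-, and 10.1, 1.18 and 6.72 in shTMEFF2 DHT+. With the second column of each library only, its difference was 2.40 (adjusted p = 0.413) and no longer passed. ATP2B1, a plasma membrane calcium pump, differed by 0.66 ± 0.15 (adjusted p = 0.0206), its means going from 285 to 128 CPM with DHT in shScramble and from 297 to 211 in shTMEFF2, and the call was lost without the second shScramble DHT-, the first shScramble DHT+ or the first shTMEFF2 DHT+ library. MAGT1 differed by -0.54 ± 0.12 (adjusted p = 0.0267), with means of 146 and 224 CPM in shScramble and 143 and 151 CPM in shTMEFF2, and 5 of 12 fits that left out a library kept the call. TRPM2 differed by -0.60 ± 0.14 (adjusted p = 0.0282), with means of 53.8 and 83.6 CPM in shScramble and 55.0 and 56.3 CPM in shTMEFF2, and its adjusted p ranged from 0.00284 to 0.137 over the alternatives.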

How the results depend on the processing

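The log2 fold changes of the 7 genes were recomputed in 728 alternative values, of which 13 moved by more than the spread between libraries and 0 reversed a called value. In 8 of 35 gene comparisons, none of them past the limits, the sign changed in some setting. Of 848 recomputed values of the other named genes, 162 lost the call and 2 reversed, both for KCNH3 with the second column only (-0.73 with DHT in shTMEFF2 and -0.18 between the lines with DHT).

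Counts of the transport list genes varied more. With a mean above 5 CPM, which tests fewer genes, 3 list genes rose and 8 fell with DHT in shScramble, 2 lower with DHT in shTMEFF2, and 2 higher and 1 lower between the lines with DHT. With the libraries of the comparison only, 2 rose with DHT in shTMEFF2 and 0 of the 7 genes were past the limits between the lines without DHT; with the first or the second column only that number was also 0. The first column only gave 2 higher and 0 lower with DHT in shTMEFF2 and, for the difference of responses, 4 higher and 1 lower. The second column only gave 1 higher with DHT in shTMEFF2, 3 higher between the lines with DHT, and 1 higher and 1 lower for the difference. Without DHT the lines differed in 4 genes called lower by DESeq2 and 1 with no filter, and for the difference of responses DESeq2 called 5 higher and library size only 4. The causes were not tested.

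Leaving out each library in turn gave, with DHT in shScramble, 4 to 8 list genes higher, 14 to 19 lower and 4 to 5 of the 7 genes past the limits, the 4 higher being without the first shScramble DHT+ library. With DHT in shTMEFF2 the ranges were 1 to 4, 2 to 6 and 3 to 3, the 1 being without the second shTMEFF2 DHT- library. Without DHT they were 0 to 0, 0 to 1 and 0 to 1, and with DHT 4 to 7, 4 to 9 and 3 to 4, the 4 lower being without the first shTMEFF2 DHT+ library. For the difference of responses they were 1 to 4, 0 to 2 and 4 to 4, with 0 lower without the third shScramble DHT-, the second shTMEFF2 DHT- or the third shTMEFF2 DHT+ library.

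Replicate numbers were not used to pair the libraries, except in the replicate block. The correlation of deviations for same-numbered libraries ran from -0.0017 to 0.169 and exceeded 0.1 in 3 of 18 pairs. For differently numbered libraries it ran from -0.1395 to 0.0658. Whether same-numbered libraries share a weak effect was not tested. With the replicate block, 3 list genes were lower between the lines without DHT and 4 higher for the difference of responses. The depth limits mainly CHRNA2 and TRPM8 without DHT.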
